A study of Mus musculus with 8 samples.

Results

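Arterial endothelial barcodes without a von Willebrand factor (Vwf) UMI were described in single-cell RNA-seq of sorted mouse endothelium. They were chosen by measured UMI counts: a barcode needed 500 UMIs and 300 genes or more and no more than 10% mitochondrial UMIs, then at least 1 UMI of at least 2 of the 5 arterial genes Gja5, Sema3g, Hey1, Gkn3 and Bmx, at least 1 UMI of Pecam1 or Cdh5, and none of Vwf, Prox1, Ptprc or Adipoq. The rule kept 1225 barcodes of the 23996 that passed the quality limits in 8 libraries. Among 13335 endothelial barcodes it found 2679 arterial ones, of which the other 1454 held Vwf. The working name for these cells was small arteries. No file gives vessel size, and the rule reads the absence of a UMI, so they are called Vwf-negative arterial barcodes here.

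Male ROSA26-eYFP+/+ Cdh5-CreERT2+ mice supplied all groups, chow controls included. In these mice the Cdh5 promoter drives a tamoxifen-dependent Cre recombinase in endothelial cells, which switches on YFP. The food held tamoxifen for 2 weeks from the age of 6 weeks, and from 8 weeks of age the mice ate normal chow with 5.8% fat or a high fat diet with 60% fat for 12 to 13 weeks. Each library pooled mesentery or epididymal adipose tissue of 6 mice, digested with actinomycin D present, and YFP-positive cells were sorted for 10x Genomics 3′ v3.1 chemistry. The 4 groups, mesentery on chow, mesentery on high fat diet, adipose on chow and adipose on high fat diet, have 2 libraries each, from an experiment carried out in full in run A and again in run B.

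Arterial endothelium is set apart from vein and capillary by Notch signalling, in which the ligands Dll4, Jag1 and Jag2 activate Notch receptors and the transcription factor RBPJ switches on Hey1 and Hey2. Gja5 and Gja4 encode the connexins 40 and 37 of endothelial gap junctions, Sema3g encodes a secreted semaphorin, and Bmx a Tec-family kinase of arterial endothelium. Vwf, the clotting factor stored in Weibel-Palade bodies, is known to be more abundant in large vessels than in arterioles and capillaries. Large elastic arteries are also known for matrix genes such as Mgp, an inhibitor of vascular calcification, while capillary and arteriolar endothelium of fat carries the fatty acid binding protein Fabp4 and the fatty acid transporter Cd36.

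Of the 5 arterial genes of the rule, 4 had an entry in the RefSeq promoter table (GRCm38.p6, the assembly that mm10 names), 250 bases before to 50 after the start. The promoters of Sema3g and Bmx are shown because they are those of the 4 that hold the motif searched for, and that of Cxcl12 because this chemokine gene was higher than in Vwf-positive arterial barcodes in every library. Capitals mark TGGGAA, the core of the RBPJ motif, or its reverse complement TTCCCA.
Sema3g (chr14:31217623-31217922, plus strand): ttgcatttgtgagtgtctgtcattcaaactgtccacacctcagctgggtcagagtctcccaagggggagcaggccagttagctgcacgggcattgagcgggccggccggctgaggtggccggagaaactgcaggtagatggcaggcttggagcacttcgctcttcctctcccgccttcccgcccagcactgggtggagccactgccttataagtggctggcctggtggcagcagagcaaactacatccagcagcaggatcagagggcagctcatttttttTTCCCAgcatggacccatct
Bmx (chrX:164258144-164258443, minus strand): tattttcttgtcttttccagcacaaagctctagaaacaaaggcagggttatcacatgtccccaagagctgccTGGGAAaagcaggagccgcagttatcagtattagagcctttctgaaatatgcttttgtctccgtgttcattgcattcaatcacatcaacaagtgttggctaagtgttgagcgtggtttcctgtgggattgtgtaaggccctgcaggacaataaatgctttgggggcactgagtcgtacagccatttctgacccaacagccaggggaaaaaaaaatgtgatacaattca
Cxcl12 (chr6:117168285-117168584, plus strand): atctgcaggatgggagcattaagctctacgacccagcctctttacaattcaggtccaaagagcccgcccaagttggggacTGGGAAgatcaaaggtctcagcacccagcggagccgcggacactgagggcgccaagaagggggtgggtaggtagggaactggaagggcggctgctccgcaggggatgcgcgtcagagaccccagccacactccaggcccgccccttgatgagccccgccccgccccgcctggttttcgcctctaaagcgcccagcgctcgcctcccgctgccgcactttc
Searched on both strands, with no other motif to overlap, the core was in 2 of the 4 promoters of the rule's genes and in 2 of 16 matched promoters of a list of 20 other arterial genes. It was in 25.6% of all 32851 promoters of 300 bases in the table. A match describes letters in this window and shows no binding.

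The runs differed more than the groups did. Run A libraries held 17 to 49 Vwf-negative arterial barcodes with 47861 to 91015 UMIs in sum, and run B libraries 166 to 345 with 725470 to 2295363. Median depth was 1693 to 2903 UMIs per barcode in run A and 3843 to 5997.5 in run B. The summed level of 17 immediate early genes, known to respond to tissue dissociation, was 18380 to 22980 CPM (a gene's UMIs per 1000000 UMIs of the library's chosen barcodes) in run A and 1349 to 1536 in run B. The matrices carry software version 3.0.2 in run A and 5.0.0 in run B. Run A values therefore rest on few cells, and run B decides most of what follows. The fit planned as the main one had no block, and by edgeR it passed 0 genes in each comparison between groups. The values given with each comparison come from an alternative with the run as a block, with the counts of the fit without it beside them. Over the 28 pairs of libraries, 101 barcode sequences were shared and none of them belonged to a Vwf-negative arterial barcode. Each group is 2 pools of mice. The p-values of the fit without the block measure the spread between pools and runs together. Those with the run as a block measure only the spread left once the run difference is taken out. Where a test compares Vwf-negative with Vwf-positive barcodes of a library, they measure how that difference varies between libraries of a group.

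Vwf-negative arterial barcodes were 2.73% of endothelial barcodes in mesentery on chow of run A and 6.31% of run B. On high fat diet, mesentery held 4.74% and 14.1%. Adipose held 5.39% and 10.7% on chow against 4.58% and 11.2% on high fat diet. The exact 95% binomial intervals of these shares, which cover counting error only, span 1.76 to 4.03% in the lowest library and 12.7 to 15.6% in the highest. The share was higher on high fat diet in 3 of 4 tissue-by-run pairs, with a mean difference of 0.34 on the logit scale. An exact two-sided permutation test within tissue and run gave p = 0.375 (adjusted 0.5 over 4 tests), and the smallest p this design allows is 0.125. Between the tissues, mesentery minus adipose, the mean difference was -0.25 (exact permutation p = 0.5, adjusted 0.5). With barcodes thinned to 1000 UMIs and shallower ones left out, the share was 3.38 to 6.35% in all 8 libraries, and the diet difference was 0.10, or 0.02 with 3 or more of the rule's genes at full depth. The part of depth in these shares was not tested.

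**Figure D1:**
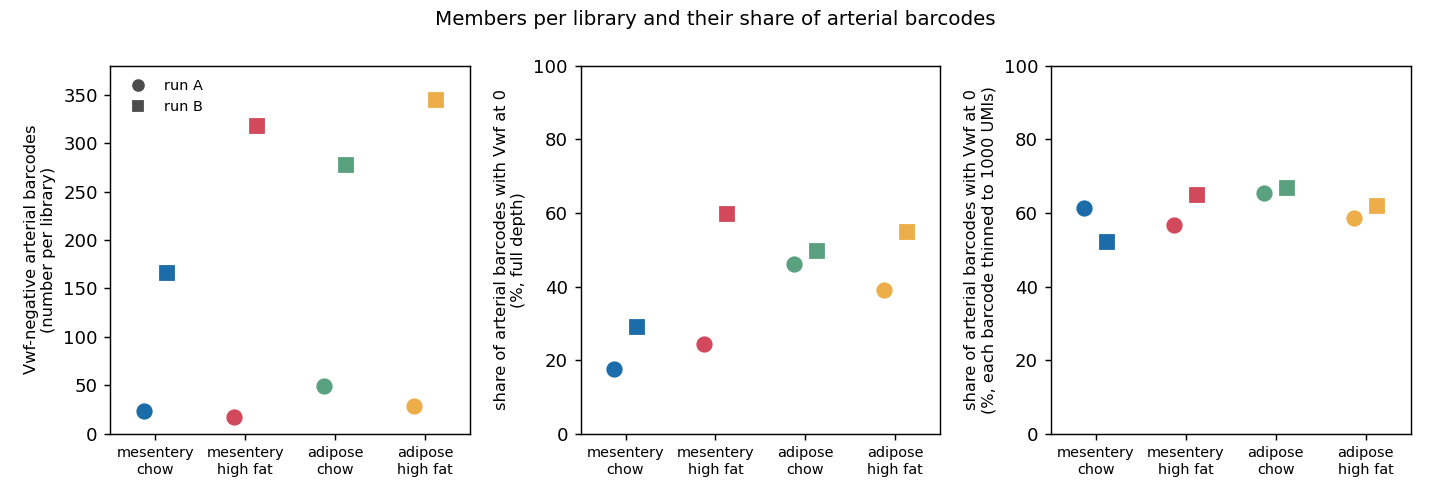
Number of Vwf-negative arterial barcodes (left), their percentage among arterial barcodes at full depth (middle) and the same percentage with every barcode thinned to 1000 UMIs (right) in each of the 8 libraries, as circles for run A and squares for run B. Run A libraries hold 17 to 49 such barcodes and run B libraries 166 to 345, and the percentages range from 17.7 to 59.8% at full depth and from 52.0 to 66.8% after thinning.

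Of all arterial barcodes, the part without a Vwf UMI was 17.7% and 28.9% in mesentery on chow (run A, then run B) and 24.3% and 59.8% in mesentery on high fat diet. In adipose it was 46.2% and 49.6% on chow against 39.2% and 54.9% on high fat diet. The mean difference between diets was 0.40 on the logit scale (exact permutation p = 0.375, adjusted 0.5), and that between the tissues was -0.69 (exact permutation p = 0.25, adjusted 0.5). With arterial barcodes chosen after thinning, the shares lay between 52.0% and 66.8% and the mean difference was -0.04 between diets and -0.19 between tissues. After thinning to 1000 UMIs, 30.9 to 58.0% of Vwf-positive barcodes had no Vwf UMI. The share without Vwf was lower in deeper barcodes of mesentery on chow of run B (51.5% under 2000 UMIs), but not from 2000 UMIs upward in either high fat diet library of run B. In mesentery it was 55.1% from 2000 to 4000 UMIs and 60.9% from 4000 to 8000, and in adipose 52.8% and 53.6%. In run A the share was lower in deeper barcodes on both diets. Mesentery on chow had 60.0% under 2000 UMIs, 29.7% from 2000 to 4000 and 5.33% from 4000 to 8000. In the same ranges mesentery on high fat diet had 50.0, 29.0 and 7.41%, and adipose on high fat diet 55.2, 36.4 and 8.33%. Adipose on chow had 56.9, 33.3 and 33.3%, the last from 3 barcodes. In adipose on chow of run B it was 55.3% under 2000 UMIs and 46.1% from 8000. Among barcodes of at least 8000 UMIs in run B, 14 of 95 (14.7%) lacked Vwf in mesentery on chow and 105 of 177 (59.3%) in mesentery on high fat diet. The same deep barcodes lacked Vwf in 46.1% of 167 in adipose on chow and in 56.1% of 180 in adipose on high fat diet. Run A had 9 barcodes of that depth, all in mesentery on chow and all with Vwf, so the difference at that depth has no replicate. From 4000 to 8000 UMIs in run A, 4 of 75 (5.33%) lacked Vwf in mesentery on chow and 2 of 27 (7.41%) on high fat diet. In run B that range had 64 of 231 (27.7%) on chow against 140 of 230 (60.9%) on high fat diet. Just outside the limit, with exactly 1 Vwf UMI, were 16 to 28 barcodes per library in run A and 59 to 123 in run B. The limit on Adipoq, an adipocyte gene, removed 317 otherwise fitting barcodes from adipose on chow of run B, 75 and 29 from mesentery on chow and on high fat diet of run B and at most 7 from any other library.

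The genes of the rule varied by run and library among the chosen barcodes, and their levels are given as a description. Sema3g was detected in 65.3 to 97.2% of Vwf-negative arterial barcodes and Hey1 in 33.3 to 83.7%. In barcodes with Ptprc, which encodes the leukocyte antigen CD45, Sema3g was detected in 0 to 31.9% and Hey1 in 0 to 8.51%. Gkn3 was found in 41.7% and 25.3% of the barcodes in mesentery on chow, in 17.6% and 1.89% on high fat diet, in 61.2% and 11.6% in adipose on chow and in 41.4% and 4.93% on high fat diet. Gkn3 was thus low in every run B library next to its run A partner. The pair Sema3g and Hey1, with none of the other 3 genes, admitted 554 of the 1225 barcodes (45.2%). This pair made up 8.16 to 29.4% of the barcodes in run A, 24.7% in mesentery on chow of run B, and 47.8 to 58.8% in the other run B libraries.

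Barcodes admitted by Sema3g and Hey1 alone differed from the others in genes the rule did not read. Fabp4 was higher in them in 8 of 8 libraries (median log2 ratio of CPM + 10 of 0.98) and Cd36 likewise in 8 of 8 (1.06). Mgp was lower in 8 of 8 (-3.65), as were Cytl1, a secreted cytokine-like protein (-3.32), and Eln, which encodes elastin (-1.64). In mesentery on chow of run B, for example, Mgp was 112 CPM in these barcodes and 3550 CPM in the rest, and Fabp4 was 30100 and 12060 CPM. Gja4 was lower in 6 of 8 libraries. In run A the barcodes admitted by this pair alone numbered 3 and 5 in mesentery (chow, then high fat diet) and 4 and 7 in adipose. The run A ratios therefore rest on few barcodes. The 2 subsets come from the same libraries and were split by the rule's own genes, so no test was made.

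Mgp and Fabp4 were almost never abundant in the same barcode. With 1% of a barcode's UMIs as the line, a value chosen after the data were seen, 58 barcodes passed for Mgp only, 967 for Fabp4 only, 1 for both and 199 (16.2%) for neither. Mgp-rich barcodes were 41.7% and 12.0% of the total in mesentery on chow against 17.6% and 0.629% on high fat diet. The adipose values were 24.5% and 0.722% on chow, leaving out the 1 barcode with both, and 13.8% and 1.45% on high fat diet. Fabp4-rich barcodes were 4.17% and 47.0% in mesentery on chow, 11.8% and 91.5% in mesentery on high fat diet, 22.4% and 86.6% in adipose on chow, and 48.3% and 95.7% in adipose on high fat diet. Pooled over both runs, which differ in depth, the median was 2570 UMIs in Mgp-rich and 5470 UMIs in Fabp4-rich barcodes. Within mesentery on chow it was 3650 against 2387 in run A and 3458.5 against 4008 in run B. The Mgp-rich median was the lower in every other library, for example 1583 against 1711 and 2169 against 5525 in adipose on high fat diet (run A, then run B). Fabp4 also reached 193 to 19370 CPM in Ptprc-positive barcodes of the same libraries, highest in adipose on chow of run B, and the part of free RNA in the Fabp4 levels was not tested.

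**Figure D2:**
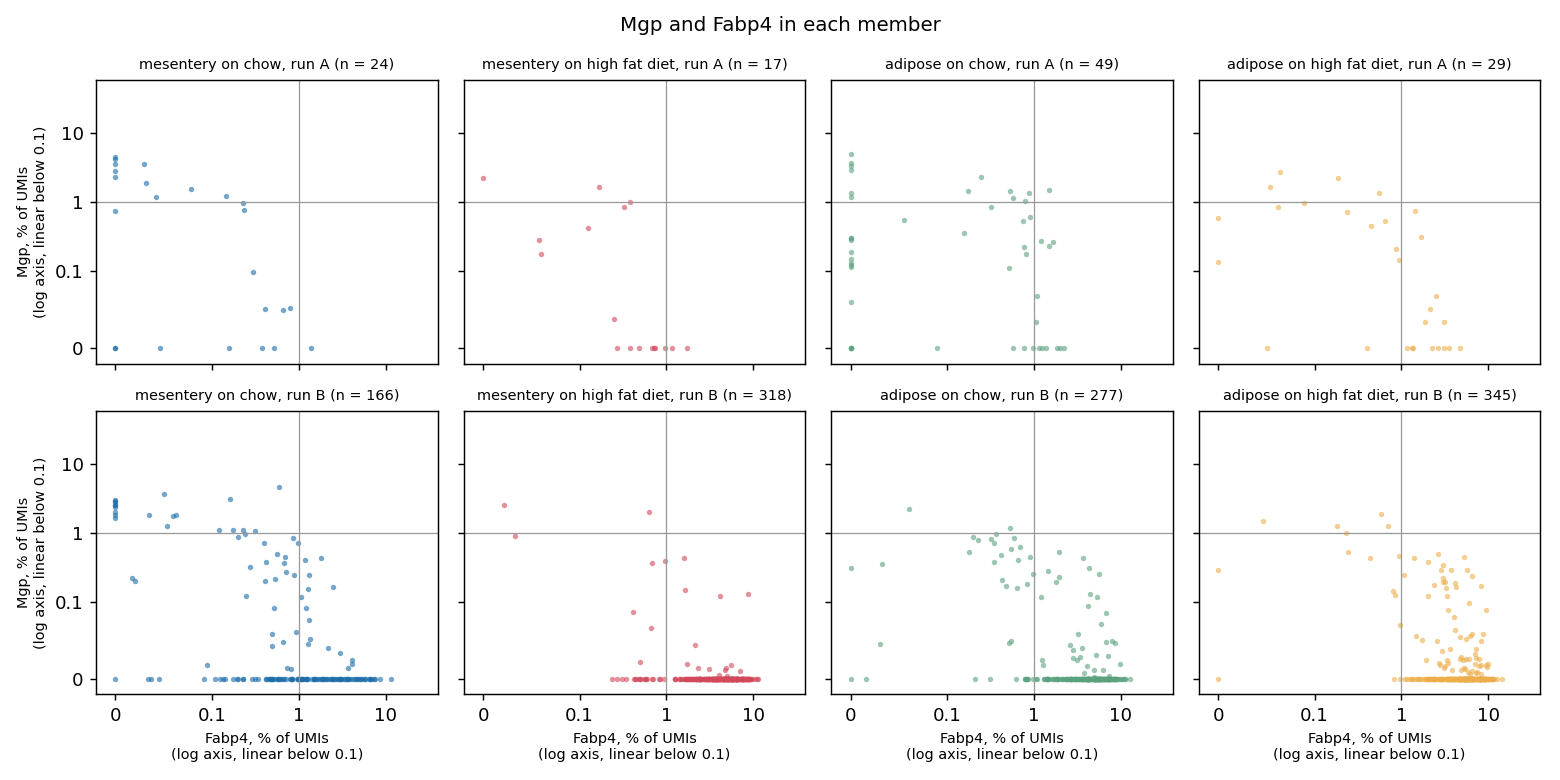
Percentage of a barcode's UMIs from Mgp (vertical) and Fabp4 (horizontal) for each of the 1225 Vwf-negative arterial barcodes, 1 panel per library with run A above run B; the axes are logarithmic and linear below 0.1%, and grey lines mark 1%. Over all panels 58 barcodes lie above the line for Mgp only, 967 for Fabp4 only and 1 for both.

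Beside Vwf-positive arterial barcodes of the same library, 183 of 30406 genes were higher and 238 lower in all 8 libraries. The rule separated the classes by Vwf, so these are descriptions with no test. Among genes lower in Vwf-negative barcodes were Bgn, which encodes the matrix proteoglycan biglycan (median log2 ratio -2.44, range -4.85 to -1.39), Cytl1 (-2.32), the leukocyte adhesion molecule Vcam1 (-2.18), Mgp (-2.14), the copper-binding ferroxidase Cp (-2.12) and Selp, which encodes P-selectin of the Weibel-Palade bodies (-2.11). Higher were the endothelin receptor Ednrb (1.80, range 1.08 to 4.26), Tcim (1.72), the secreted Igfbp7 (1.68), the taurine transporter Slc6a6 (1.66), the growth factor Tgfb2 (1.64), the retinol binding protein Rbp7 (1.43), the chemokine Cxcl12 (1.42), Gpihbp1, which carries lipoprotein lipase across capillary endothelium (1.38), and the VEGF receptor Kdr (1.32). Of 18 genes in the large artery and elastic matrix list, 12 were lower in all 8 libraries and none higher (list median -0.992, against 0 for all detected genes). Of 20 arterial identity genes outside the rule, 1 was higher and none lower in all 8 (median -0.0714). Gja5, a gene of the rule, was lower in 8 of 8 (-1.26).

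Cxcl12 shows the class difference by library. It was 238 and 1613 CPM in Vwf-negative barcodes of mesentery on chow, where Vwf-positive barcodes held 29.5 and 345.8. On high fat diet the mesenteric values were 774 and 1948 CPM against 158 and 705. The adipose values were 429 and 1213 against 159 and 699.6 on chow, and 377 and 2497 against 161 and 1250 on high fat diet. Run B was high in both classes, and the Vwf-negative barcodes were higher within every library.

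Against the remaining endothelial barcodes, arterial genes were higher and venous genes lower, while the capillary list had a median log2 ratio near 0. The rule asked for arterial genes and for Vwf at 0, while the remaining barcodes had no limit on Vwf. These values are therefore also descriptions with no test. Of 20 arterial identity genes that the rule did not read, 12 were higher in all 8 libraries and none lower (median log2 ratio 1.29), led by Gja4 (2.58, range 2.32 to 3.60), with the Notch ligand Jag2 at 2.25 and the lymphangiogenic growth factor Vegfc at 2.18. The phosphatase gene Alpl (2.81), Stmn2 (2.45), the collagen gene Col8a1 (2.49) and Nebl (2.51) were among the 15 highest of the 480 genes that were higher in all 8. Of 955 lower genes, Ccl21a of lymphatic endothelium (-5.05), Selp (-3.89), Lrg1 (-3.70), the venous chemokine receptor Ackr1 (-2.73) and the venous transcription factor Nr2f2 (-2.65) were among the 15 lowest. Of 11 venous markers 10 were lower in all 8 libraries, as were 4 of 7 lymphatic ones and 4 of 15 capillary ones, with 1 capillary marker higher and a capillary list median of -0.0349. In mesentery on high fat diet of run B, the median share of a barcode's UMIs from capillary markers was 5.52% in Vwf-negative arterial barcodes, 6.52% in the remaining endothelial barcodes and 2.50% in Vwf-positive arterial barcodes. The summed level of the arterial identity list was 7174 to 10260 CPM over the 8 libraries and did not order them by diet, tissue or run.

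High fat diet in mesentery went with lower large artery genes and higher fatty acid genes in Vwf-negative arterial barcodes. Mgp was 14670 and 2612 CPM on chow (run A, then run B) against 3408 and 180.6 on high fat diet. Its UMIs sat in 17 and 60 barcodes on chow and in 8 and 22 on high fat diet. The 5 barcodes with the most held 734 of 1047 and 789 of 1888 UMIs on chow. On high fat diet they held 153 of 163 and 350 of 413. The Mgp level was lower on high fat diet within each run, while the diet groups overlapped across runs. The log2 change was -3.18 ± 0.31 (SE, 2 libraries per group; edgeR quasi-likelihood test with the run as a block, adjusted p = 4.6e-09). Cytl1 was 2214 and 734.6 CPM on chow against 501.7 and 28.4 on high fat diet, and its groups did not overlap (-3.80 ± 0.42, adjusted p = 5.56e-08). Clu, which encodes the secreted chaperone clusterin, was 1667 and 1078 CPM on chow against 857 and 177 on high fat diet. Vcam1 was 1023 and 137 CPM on chow against 104.5 and 26.7 on high fat diet. The diet groups of Clu and of Vcam1 did not overlap. Both fell, by 2.04 ± 0.32 and 2.58 ± 0.38 on the log2 scale (adjusted p = 6.34e-05 and 2.49e-05).

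Fabp4 went the other way, from 1751 and 16980 CPM on chow to 5080 and 45890 on high fat diet. The level was higher on high fat diet within each run (1.41 ± 0.25 on the log2 scale, adjusted p = 0.000458), while the diet groups overlapped across runs. Fabp5, another fatty acid binding protein, was 56.0 and 362.5 CPM on chow against 314 and 1931 on high fat diet (2.49 ± 0.36, adjusted p = 1.23e-05). Cd36 was 210.2 and 2261 CPM on chow against 397 and 5558 on high fat diet (1.16 ± 0.30, adjusted p = 0.0417). Angptl4, a secreted inhibitor of lipoprotein lipase, was 0 and 33.2 CPM on chow against 41.8 and 274 on high fat diet (3.04 ± 0.44, adjusted p = 1.6e-05). The run A values of Angptl4 are 0 and 2 UMIs, fewer than the 3 UMIs that a count of 0 allows. Rbp7 rose by 1.64 ± 0.32 (adjusted p = 0.00211), from 98.1 and 715 to 606 and 1921 CPM. In Ptprc-positive barcodes of the same 4 libraries Fabp4 was 448 and 3351 CPM on chow against 193 and 4063 on high fat diet, and Fabp5 was 25.4 to 813 CPM.

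**Figure D3:**
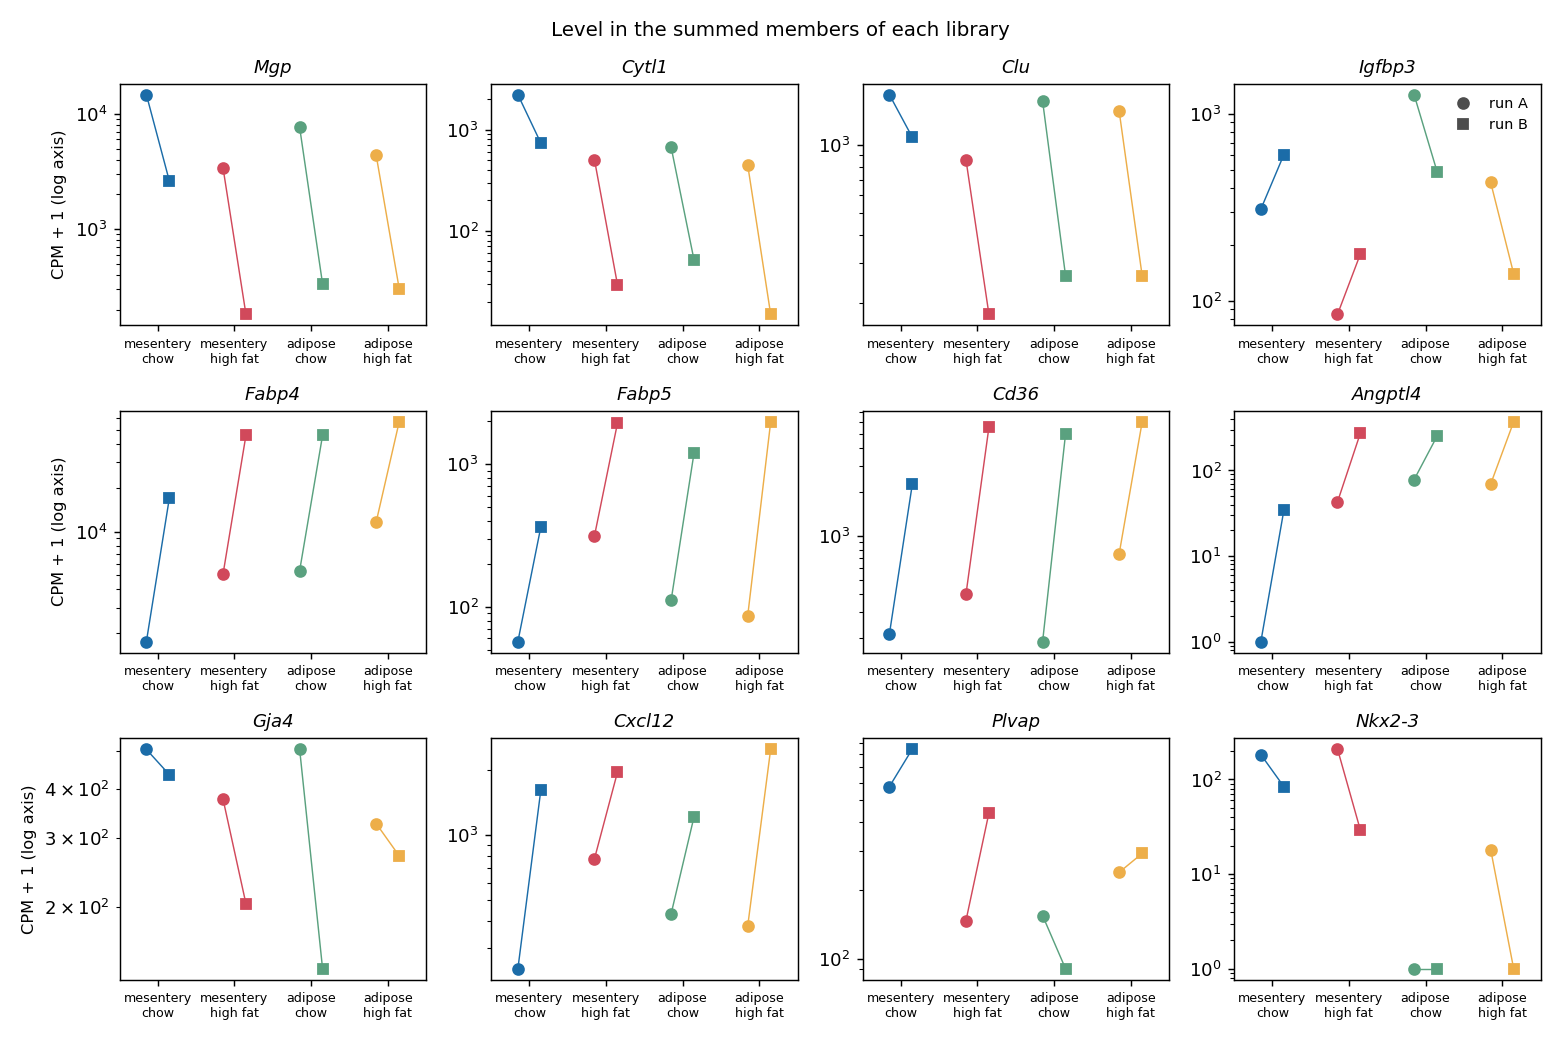
Level of 12 genes in Vwf-negative arterial barcodes of each of the 8 libraries, as CPM plus 1 on a logarithmic axis whose range differs by gene, with circles for run A, squares for run B and a line joining the runs of a group. In mesentery Mgp and Cytl1 are lower and Fabp4, Fabp5 and Angptl4 higher on high fat diet within each run, and Nkx2-3 is at 0 in both adipose libraries on chow.

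Over all 6818 genes tested, 86 (1.26%) changed with diet in mesentery with the run as a block, 42 higher (0.616%) and 44 lower (0.645%). Gkn3 and Bmx, which the rule read, are 2 of the 44. Of 18 large artery genes 6 fell and none rose (Sulf1, Vcam1, Cytl1, Mgp, Clu and Bgn), with a list median of -1.26 against -0.02 for all genes tested. Eln, at -1.24 ± 0.38, did not pass (adjusted p = 0.118), and Fbln2, a fibulin of elastic fibres, was at 0.05 ± 0.29. Of 15 tested fatty acid genes 6 rose and none fell (Fabp5, Fabp4, Aqp7, Plin2, Cd36 and Angptl4), with a median of 1.14. Gpihbp1, on the same list, was at 1.21 ± 0.36 (adjusted p = 0.101). None of 18 arterial identity genes passed, and their median was -0.05. Gja4, for example, was at -0.90 ± 0.33 (adjusted p = 0.281), Nrp1, a semaphorin and VEGF co-receptor, at 0.55 ± 0.30, and Tm4sf1 at -0.14 ± 0.24. Of 11 insulin and IGF genes tested 3 fell, namely Igfbp3 (-1.60 ± 0.38), Igfbp4 (-1.88 ± 0.34) and Igf2 (-3.24 ± 0.45). None of 15 autophagy, 16 interferon, 8 shear response or 11 positional transcription factor genes passed.

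The remaining lists had 1 or 2 members past the threshold in mesentery, or none. Sparc, which encodes a collagen-binding matrix protein, was 658.5 and 1320 CPM on chow against 1714 and 3853 on high fat diet, with no overlap (1.43 ± 0.27, adjusted p = 0.00123), and was the 1 of 14 basement membrane and matrix genes that rose. Cldn5, of 12 pan-endothelial genes, rose by 0.95 ± 0.24 (adjusted p = 0.0288), from 1583 and 888 to 3366 and 1708 CPM. Depp1, a gene activated by FOXO factors, was 70.05 and 106.5 CPM on chow and higher on high fat diet, at 627 and 203 (1.44 ± 0.39, adjusted p = 0.0482), 1 of 11 FOXO and glucocorticoid target genes. Of 15 BMP and TGF-beta genes Tgfb2 fell, from 196 and 234 CPM to 125.4 and 56.8 (-1.74 ± 0.36, adjusted p = 0.00351). The adhesion list had 2 of 11 lower, Vcam1 and Icam1, and the run A chow library stood out for Icam1 with 686.5 CPM where the other 3 mesenteric libraries held 33.7 to 83.6. Of 15 vasomotor genes Ptgis, prostacyclin synthase, fell, with 12 and 20 UMIs on chow against 0 and 2 on high fat diet. None of 16 immediate early genes passed.

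The diet comparison in mesentery without the run as a block gave 0 genes (0%) by edgeR, where 64 had an unadjusted p under 0.05, and 2 by DESeq2. With the block, the count was 2 without mesentery on chow of run B, 4 without mesentery on high fat diet of run B, 32 without adipose on high fat diet of run B, 50 without adipose on chow of run B and 199 without mesentery on chow of run A. It was 132 without adipose on chow of run A, 22 by DESeq2 and 29 with 3 or more of the rule's genes required. Mgp fell under each of these edgeR settings (adjusted p at most 0.0237), while Fabp4 missed the threshold without mesentery on chow of run A, mesentery on chow of run B or mesentery on high fat diet of run B (adjusted p = 0.0981, 0.321 and 0.265) and without the Adipoq limit (0.90, adjusted p = 0.0681). The other genes named above were less stable than Mgp. Without mesentery on chow of run B, Clu moved to -0.94 (adjusted p = 0.548), and Vcam1 (0.306), Fabp5 (0.754), Angptl4 (0.603), Cd36 (0.804) and Rbp7 (0.321) also missed the threshold. Without mesentery on high fat diet of run B, Clu (0.32), Vcam1 (0.067), Cytl1 (0.142), Angptl4 (0.76), Cd36 (0.76) and Rbp7 (0.346) missed it. Fabp5 (0.103) and Cd36 (0.825) missed it with 3 or more of the rule's genes. Cd36 also missed it without the Adipoq limit and without mesentery on high fat diet of run A, adipose on high fat diet of run A or adipose on high fat diet of run B (1.0, 0.0535, 0.102 and 0.0826). Igfbp3 moved from -1.60 to -0.14 without mesentery on chow of run B and to -3.13 without mesentery on high fat diet of run B, and to -0.94 with 3 or more of the rule's genes (adjusted p = 0.979, 0.3 and 0.876). It also missed the threshold without mesentery on high fat diet of run A (0.0539) and adipose on high fat diet of run B (0.103). Igfbp4 moved to -1.10 without mesentery on chow of run B (adjusted p = 0.672), and missed the threshold without mesentery on high fat diet of run B (0.406) and with 3 or more of the rule's genes (0.201).

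**Figure D4:**
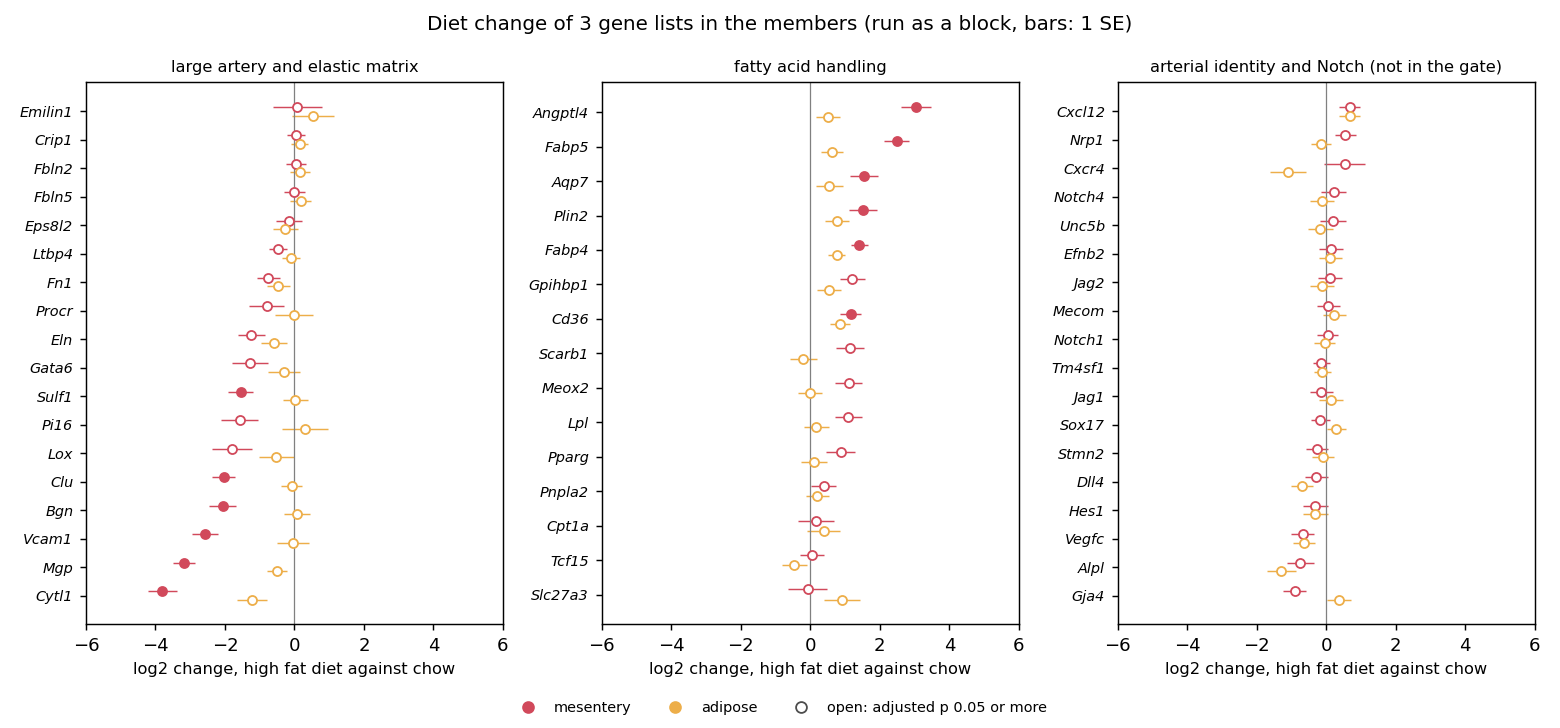
Log2 change on high fat diet against chow of each tested gene of 3 lists in Vwf-negative arterial barcodes of mesentery and of adipose, from the edgeR fit with the run as a block; bars are 1 SE and filled points passed the adjusted threshold. In mesentery 6 large artery genes fell and 6 fatty acid genes rose, and no point of adipose in these lists is filled.

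Some of the largest changes in mesentery rested on few barcodes. Lyve1, Mmrn1 and Ccl21a, markers of lymphatic endothelium, fell, 3 of the 4 lymphatic markers tested. Ccl21a has near-identical copies, as has Hba-a1 in Hba-a2, and reads could be split among them. Together they held 81 and 497 UMIs on chow against 8 and 15 on high fat diet, and 5 barcodes per library carried 81 and 491 of the chow UMIs. Fgl2 had 9 and 55 UMIs on chow, in 1 and 6 barcodes, against 0 and 1. At least 2 lymphatic markers were present in 0 to 5.88% of the barcodes of a library although Prox1 was 0 by the rule. Acta2 of smooth muscle rose (3.79 ± 0.87, adjusted p = 0.0144), 1 of 3 mural markers of 8 that rose, and all 41 UMIs in mesentery on high fat diet of run A came from 1 barcode. The summed mural level of 10 markers was 56.0 and 141.1 CPM on chow against 941 and 878 on high fat diet. At least 3 mural markers were present in 16.4% of the barcodes in mesentery on high fat diet of run B and in 2.41% in mesentery on chow of run B. With barcodes of at least 2 lymphatic or 3 mural markers left out, 74 genes were called in place of 86. Mgp and Fabp4 kept their changes (-3.05 and 1.41). In mesentery on high fat diet of run A 0 barcodes reached 3 mural markers, so the mural limit removed none there.

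Other markers moved too. Of 15 capillary markers tested 6 rose and 1 fell with diet in mesentery, Fabp4, Aqp7 and Cd36 among them, and the summed capillary level was 2550 and 22660 CPM on chow against 6230 and 58820 on high fat diet. Summed adipocyte markers were 28.0 and 535 CPM on chow against 0 and 129 on high fat diet. Summed macrophage markers were 0 to 34.1 CPM in these 4 libraries. What capillary or arteriolar cells that pass the rule add to the change was not tested.

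In adipose the same diet changed 11 of 6818 genes (0.161%) with the run as a block, 2 higher (0.0293%) and 9 lower (0.132%). Without it edgeR gave 0 genes (0%), while 15 had an unadjusted p under 0.05, and DESeq2 gave 0. Igfbp3, a binding protein of the insulin-like growth factors, was 1264 and 490 CPM on chow against 428 and 139 on high fat diet. The groups did not overlap, and the fall was 1.83 ± 0.40 on the log2 scale (adjusted p = 0.0292). The call was lost without adipose on chow of run B, or without adipose on high fat diet of run B, where 0 genes passed.

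Adipocyte transcripts made up much of the remainder. Car3, Retn, Cfd and Cdo1, all 4 adipocyte markers tested, fell. Car3 was 10.99 and 791 CPM in Vwf-negative arterial barcodes of adipose on chow against 0 and 21.1 on high fat diet. Ptprc-positive barcodes of the same libraries held 0 and 798 CPM on chow against 0 and 5.47 on high fat diet, and in run B of chow the levels in the 2 cell classes were nearly equal. Mgp was 7662 and 333 CPM on chow against 4350 and 303 on high fat diet, a change of -0.50 ± 0.29 that did not pass. Fabp4 was 5365 and 45840 CPM on chow against 11660 and 56730 on high fat diet (0.76 ± 0.24, adjusted p = 0.62). Of the 11 insulin and IGF genes Igf2 fell with Igfbp3. None of the large artery, fatty acid, capillary or arterial identity genes passed in adipose, and the medians of the first 2 lists were -0.05 and 0.50 against -0.01 for all genes. Without the limit on Adipoq, 98 genes were called in place of 11, over 592 barcodes in place of 277 in adipose on chow of run B.

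The diet changes of the tissues were compared by an interaction term, mesentery minus adipose. With the run as a block 14 genes passed (0.205%), 5 higher (0.0733%) and 9 lower (0.132%), and 0 (0%) without it, where 16 had an unadjusted p under 0.05. DESeq2 called 0 with and without the block. Mgp fell more in mesentery (-2.67 ± 0.42, adjusted p = 0.000437), as did Vcam1 (-2.55 ± 0.58, adjusted p = 0.0417), Clu (-1.97 ± 0.44, adjusted p = 0.0407) and Plvap, which encodes the diaphragm protein of fenestrated and caveolar endothelium (-2.59 ± 0.50, adjusted p = 0.01). Angptl4 rose more in mesentery (2.55 ± 0.56, adjusted p = 0.0358). The interaction of Fabp4 was 0.65 ± 0.34 and did not pass. No gene passed with 3 or more of the rule's genes required, without mesentery on chow of run B, without adipose on chow of run B or without adipose on high fat diet of run B. The count was 2 without mesentery on high fat diet of run B and 48 without mesentery on chow of run A.

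On chow, Vwf-negative arterial barcodes of mesentery and adipose differed in 1 position gene and in members of the large artery and fatty acid lists. Nkx2-3, the homeobox factor known from intestinal and splenic vessels, was 182 and 83.0 CPM in mesentery, or 73 UMIs, and 0 and 0 in adipose. Set against 3 UMIs over both adipose libraries, the mesenteric level was at least 59.5-fold higher, and the gene passed with the run as a block (adjusted p = 1.87e-07). The secreted matricellular protein Ccn3, with 16 UMIs in mesentery on chow and 0 in adipose, was at least 13.0-fold higher (adjusted p = 0.0115). Enpp2, which encodes autotaxin, was 238 and 246 CPM in mesentery and 0 and 16.2 in adipose (4.0 ± 0.43, adjusted p = 2.6e-08). Plvap was 574 and 844 CPM in mesentery and 154 and 89.1 in adipose (2.90 ± 0.37, adjusted p = 1.11e-06). Mgp was higher in mesentery by 2.06 ± 0.30 (adjusted p = 1.24e-05) and Fabp4 lower (-1.47 ± 0.25 on the log2 scale, adjusted p = 0.0002), both with overlap between the tissues across runs. Cldn5, the tight junction claudin of endothelium, was lower in mesentery in both runs (-1.48 ± 0.24, adjusted p = 7.83e-05).

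Over all genes 91 differed between the tissues on chow (1.33%), 41 higher in mesentery (0.601%) and 50 lower (0.733%). The large artery list had 5 of 18 higher and none lower, the fatty acid list 4 of 15 lower and none higher, and 1 positional transcription factor, Nkx2-3, of 11 was higher. Capillary markers were lower in mesentery for 7 of 15, mural ones for 4 of 8 and haemoglobins for 4 of 4, and lymphatic markers were higher for 3 of 4. The mesenteric chow libraries are also the controls of the diet comparison in mesentery, so the 2 results share them. The fit without the block gave 0 genes (0%) by edgeR, where 60 had an unadjusted p under 0.05, and 1 by DESeq2. With the block the count was 0 without mesentery on chow of run B, 1 without adipose on chow of run B, 34 and 37 without adipose and mesentery on high fat diet of run B, 228 without mesentery on chow of run A, 141 and 156 without adipose on high fat diet and on chow of run A, 20 by DESeq2 and 38 with 3 or more of the rule's genes.

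On high fat diet 7 genes differed between the tissues (0.103%), 2 higher in mesentery (0.0293%) and 5 lower (0.0733%). Nkx2-3 was 209 and 28.0 CPM in mesentery and 17.1 and 0 in adipose, where 1 UMI was counted (5.88 ± 0.92, adjusted p = 0.000222). That call was lost with 3 or more of the rule's genes (adjusted p = 0.111), with barcodes of lymphatic or mural markers left out (0.06), and without any 1 of the 4 run B libraries (0.128 to 0.914). Ccn3 was 209 and 27.5 CPM in mesentery and 17.1 and 0.897 in adipose (4.52 ± 0.94, adjusted p = 0.0274). Of the 5 lower genes 4 were haemoglobins, and summed red cell markers held 1392 and 2619 CPM in run B of adipose, on chow and on high fat diet. Hba-a1 UMIs sat in at most 13 barcodes of a library. Lgals3, a galectin of macrophages, was the other lower gene, at 0 and 22.7 CPM in mesentery and 68.5 and 125 in adipose, and at 131 to 3954 CPM in Ptprc-positive barcodes of those libraries. In edgeR without the block 0 genes passed (0%) and 12 had an unadjusted p under 0.05, and DESeq2 gave 0 with and without it. The block count was 0 without either run B library on high fat diet and 4 without either run B library on chow, and 14 to 24 without a run A library.

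Whether the diet change differed between the 2 arterial classes was tested in mesentery with the library as a block, so that both classes come from the same library. The classes were cut by a Vwf UMI. Of arterial barcodes in mesentery, 17.7% and 28.9% lacked it on chow (run A, then run B) against 24.3% and 59.8% on high fat diet. The test therefore cannot tell a change within a class from barcodes that changed class with diet. Of 9006 genes, 34 passed (0.378%), 3 higher (0.0333%) and 31 lower (0.344%) in Vwf-negative than in Vwf-positive barcodes with diet. Gkn3, which the rule read, is 1 of the 31. Mgp was lower on high fat diet in both classes of each run, and its change was more negative in the Vwf-negative one (-1.53 ± 0.26, adjusted p = 5.37e-06). In Vwf-positive barcodes it was 23910 and 13840 CPM on chow against 13060 and 3185 on high fat diet. The log2 ratio of Mgp between the classes was -0.70 and -2.40 on chow against -1.93 and -4.07 on high fat diet. Cytl1 (-2.04 ± 0.31, adjusted p = 2.6e-07), Vcam1, Clu and Bgn behaved alike, 5 of 18 large artery genes in all, with a list median of -0.45 against -0.01 for all genes. Fabp4 did not pass (-0.47 ± 0.24).

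The 2 smallest p-values belonged to Ms4a6b and Tmem100, which were higher on high fat diet in Vwf-positive barcodes of both runs. Tmem100, a membrane protein downstream of BMP9 and ALK1 in arterial endothelium, was 126 and 220 CPM in Vwf-negative barcodes on chow against 146 and 76.1 on high fat diet. In Vwf-positive barcodes it was 20.8 and 80.0 CPM on chow against 97.6 and 233 on high fat diet. The change differed by -2.90 ± 0.44 (adjusted p = 2.6e-07). Ms4a6b was 98.1 and 73.3 CPM on chow against 62.7 and 8.74 on high fat diet in Vwf-negative barcodes, and 1.74 and 28.5 against 37.2 and 52.0 in Vwf-positive ones (-3.93 ± 0.59, adjusted p = 1.98e-07). Ms4a6b is also known from leukocytes, and its Vwf-negative values rest on 7, 53, 3 and 20 UMIs. Of 11 insulin and IGF genes 4 were lower, namely Igfbp3 (-2.48 ± 0.40), Igfbp4, Igfbp5 and Igfbp7 (-1.66 ± 0.31). Igfbp3 was 308 and 603 CPM on chow against 83.6 and 177.5 on high fat diet in Vwf-negative barcodes, and 26.0 and 301 against 88.3 and 361 in Vwf-positive ones. Acta2 (2.89 ± 0.57) and Myh11, mural genes, were 2 of the 3 higher ones.

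**Figure D5:**
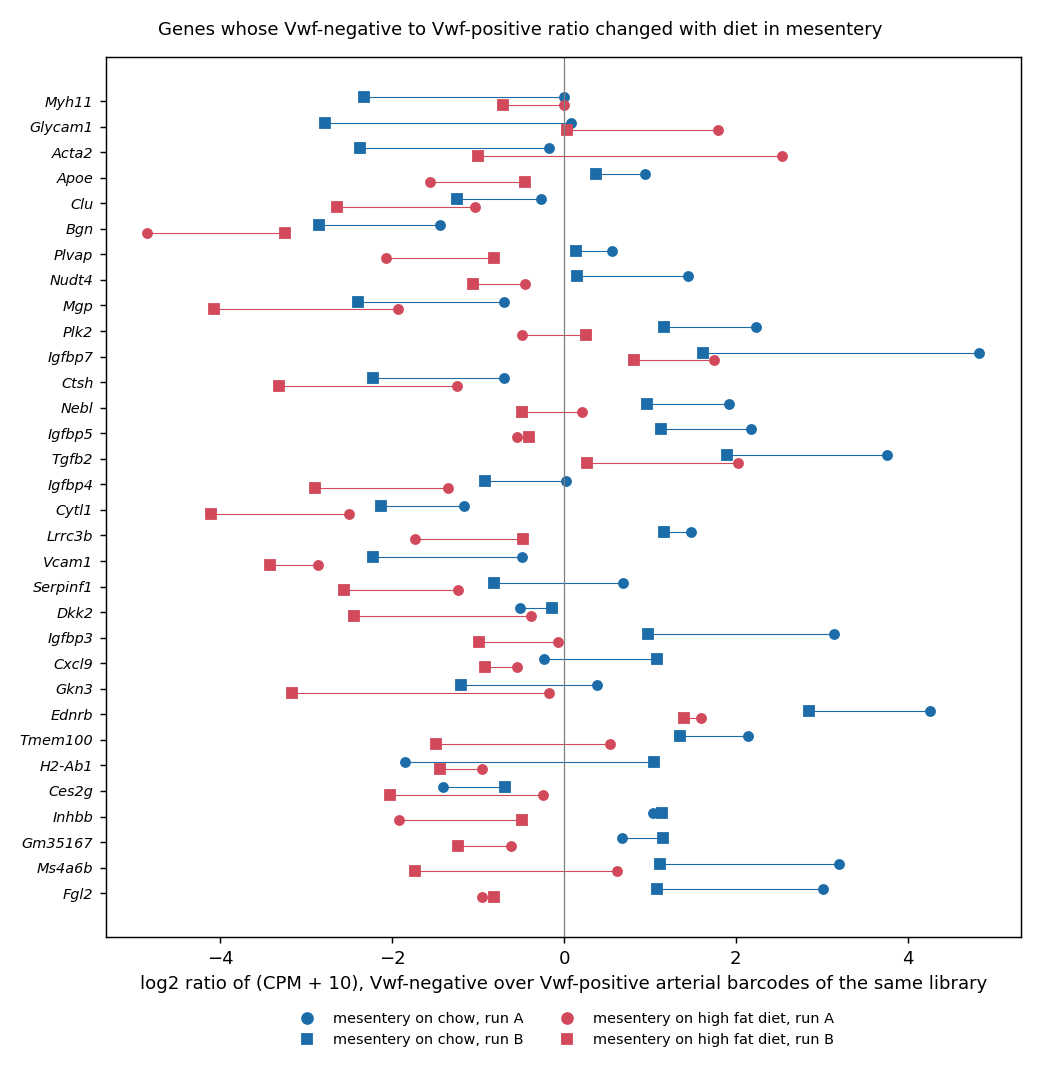
Log2 ratio of CPM + 10 between Vwf-negative and Vwf-positive arterial barcodes of each mesenteric library, for 32 of the 34 genes whose diet change differed between the classes, with circles for run A, squares for run B and a line joining the runs of a diet. For Tmem100 the chow libraries lie above 0 and run B of high fat diet below it, and for Mgp and Cytl1 the ratio is below 0 in all 4 libraries and lowest in run B of high fat diet.

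The count of 34 fell to 6 without mesentery on high fat diet of run B, where Tmem100 and Ms4a6b were at -1.30 and -1.31 (adjusted p = 0.989 for both), and to 18 without mesentery on chow of run A. It was 0 by DESeq2, 2 with 3 or more of the rule's genes, 51 with the run by class as a further block, and 31 with barcodes of lymphatic or mural markers left out. In adipose the same test passed for 2 genes (0.0222%), 2 higher (0.0222%) and 0 lower (0%): the haemoglobins Hba-a1 (4.10 ± 0.77, adjusted p = 0.00105) and Hba-a2 (4.25 ± 0.88, adjusted p = 0.00588). Both rest on at most 14 Vwf-negative barcodes of a library, and no other gene, Mgp and Fabp4 included, passed there. In run B, summed red cell markers rose from 1392 to 2619 CPM in Vwf-negative barcodes with diet. They fell from 45.8 to 5.44 CPM in Vwf-positive ones. Run A went the other way, from 33.0 to 0 CPM in Vwf-negative and from 0 to 51.3 CPM in Vwf-positive barcodes.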

How the data were processed

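The authors deposited a matrix of UMI counts per gene and barcode for each library, with software version 3.0.2 (run A) or 5.0.0 (run B) per the file headers. The build mm10 and Seurat 4.3.0 are named in the submitters' processing notes. The sources used here do not give the aligner. Counts were read as deposited over 30406 gene identifiers shared by all libraries, which held 99.581 to 99.925% of a library's UMIs over all its barcodes. CPM scale each library's sum over the chosen barcodes to the same total.

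The rule, the gene lists and the cell type markers were chosen with earlier results of these data known. Scrublet (top share of 0.8% per 1000 barcodes) marked 858 barcodes, 46 of them chosen by the rule, while its automatic threshold marked 43, and doublets were kept except in an alternative. For thinned shares each barcode was drawn down to 1000 UMIs and shallower ones were left out. Intervals are exact (Clopper-Pearson).

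UMI counts were summed over the chosen barcodes of each library and tested with edgeR 4.0.16 in R 4.3.3 (TMM, filterByExpr, quasi-likelihood test, Benjamini-Hochberg over all genes tested, threshold 0.05), with 1 mean per group and no block, and again with the run as a block. The class-by-diet test had the library as a block. Both kinds of fit were also run on simulated counts. Their spread and run effect were set beforehand and not estimated from the libraries, so this does not check the fits at the spread of these data. The labels state that the experiment was repeated in full. Deviations from the group means correlated between same-run libraries for each of 6 pairs of groups (r from 0.297 to 0.4 over 6818 genes). The runs also differ in depth and software version, so this correlation cannot show by itself that the runs pair the libraries. Shares were compared by exact permutation. Alternatives were DESeq2 1.42.0, no filter on low counts, each library left out, 3 or more of the rule's genes, 1000 UMIs or more, doublets removed and Vwf at 2 UMIs or more. Leaving out barcodes with 2 lymphatic or 3 mural markers, and dropping the Adipoq limit, were added after the data were seen. Matrices were handled with Python 3.11.15 and scanpy 1.11.5.

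Named in each comparison were the 2 genes of smallest p without the block, up to 10 largest rises and 10 largest falls with it (same way in both runs, at least 10 counts in the higher group), and up to 4 genes of each list with the highest mean CPM. Class descriptions name genes from the 15 largest and 15 smallest median ratios. Genes beyond this rule, such as those of other cell types, were named after their values were seen, and a few genes are not reported here.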

Additional observations from a re-analysis of the deposited data

Results flagged for a closer look

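Groups of 2 libraries are too small to look for a library far from the others, so each result here is a difference between effects. The diet change differed between mesentery and adipose in these genes (mesentery minus adipose on the log2 scale, edgeR with the run as a block, adjusted p under 0.05). Lower in mesentery were Mgp (-2.67), Clu (-1.97), Vcam1 (-2.55), Plvap (-2.59), Fgl2 (-8.30), Lyve1 (-5.48) and Ccl21a (-5.24). Higher were Angptl4 (2.55), Car3 (3.62) and Retn (5.70). The values of Fgl2, Lyve1, Ccl21a and Retn rest on libraries at or near 0 UMIs and depend on the prior count of the fit. Car3 and Retn are adipocyte genes that fell in adipose with diet, and adipocyte transcripts were also counted in Ptprc-positive barcodes there.

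The diet change in mesentery differed between the arterial classes, Vwf-negative minus Vwf-positive with the library as a block, in 34 genes, of which those described in the text follow. Matrix and large artery genes were lower in the Vwf-negative class: Bgn (-1.34), Clu (-1.24), Cytl1 (-2.04), Mgp (-1.53) and Vcam1 (-2.15). Igfbp3 (-2.48), Igfbp4 (-1.97), Plvap (-1.39), Tmem100 (-2.90) and Ms4a6b (-3.93) were lower too. Fgl2 (-5.65) was lower with few UMIs, and Acta2 was higher (2.89). In adipose the haemoglobins Hba-a1 (4.10) and Hba-a2 (4.25) were higher in the Vwf-negative class with diet, while summed red cell markers went the other way in run A.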

How the results depend on the processing

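The run as a replicate block decided the counts of genes: 86 in place of 0 for diet in mesentery, 11 in place of 0 in adipose, 91 in place of 0 for tissue on chow, 7 in place of 0 for tissue on high fat diet, and 14 in place of 0 for the interaction term. Without the block, DESeq2 called 2 for diet in mesentery and 1 for tissue on chow, and without a filter on low counts edgeR called 56, 52, 46, 10 and 4 in that order. With the block, DESeq2 called 22, 1, 20, 0 and 0. The fit with the block and no low-count filter called 40 for diet in adipose, 138 for tissue on chow, 14 for tissue on high fat diet, 32 for the interaction. With 3 or more of the rule's genes it called 29 for diet in mesentery, 2 in adipose, 38 for tissue on chow and 0 for the interaction. Without the Adipoq limit it called 98 for diet in adipose, 17 for tissue on high fat diet, 25 for the interaction. The class-by-diet count in mesentery was 0 by DESeq2, 20 without the filter and 2 with 3 or more genes. In adipose it was 0 by DESeq2, 6 with 3 or more genes, 0 with Vwf at 2 UMIs or more and 1 with lymphatic or mural barcodes left out. The diet difference of the Vwf-negative share turned to -0.04 after thinning. The cause of these changes was not tested.

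Leaving out 1 library gave 0 to 3 genes for diet in mesentery without the block and 0 for the other comparisons. With the block it gave 2 to 199 for diet in mesentery, 0 to 59 in adipose, 0 to 228 for tissue on chow, 0 to 24 for tissue on high fat diet, 0 to 48 for the interaction. Class-by-diet counts were 6 to 38 in mesentery and 2 to 5 in adipose. Share differences ranged from 0.15 to 0.51 and -0.42 to -0.09 for endothelial barcodes (diet, tissue), and from 0.11 to 0.64 and -0.99 to -0.46 for arterial ones. Without the block, the following log2 values changed sign when 1 library was left out. For diet in mesentery these were Fabp4 -0.89 to 3.77, Cd36 -1.66 to 3.74 and Aqp7 -1.38 to 11.13. Lgals1 (-0.13 to 10.06) and Cxcl12 (-0.29 to 2.43) did so there too. For diet in adipose they were Mgp -3.64 to 2.72, Fabp4 -1.1 to 2.68 and Car3 -11.28 to 0.61. For tissue on chow they were Mgp -0.54 to 4.63 and Fabp4 -3.79 to 0.81, and for the interaction Mgp -5.18 to 1.19 and Clu -3.19 to 0.09. The class-by-diet test has the library as a block. In adipose its values for Hba-a1 (-11.02 to 5.63) and Hba-a2 (-10.14 to 8.6) also changed sign. With the run as a block, Ccl21a turned to 0.47 with lymphatic or mural barcodes left out. Lgals1 turned to -0.26 and Mgp in adipose to 0.03 without the Adipoq limit, and Cxcl12 to -0.09 with 3 or more genes. Values for named genes were also set against the main fit, which had no run block and passed 0 genes in the comparisons between groups. Of these values, 688 kept direction and side of the threshold, 547 moved past it, 4 fell short of it and 23 turned sign. With 0 calls to lose in those comparisons, these numbers do not measure how stable the calls with the block were. A minimum of 1000 UMIs, or doublets removed, moved no count by over 1.5 times. Run A sums of 47861 to 91015 UMIs limit what low genes can show.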
